A study of Homo sapiens with 6 samples.

Results

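Cadherin, tight junction and epithelial-mesenchymal transition (EMT) genes were followed in TF-1, an established human line that the labels describe as acute myeloid leukaemia and that grows in suspension and depends on a cytokine. The set was a fixed list of 48 gene symbols, of which 42 were measured among the 18377 genes of a whole-transcript array with 1 intensity per probe set. One group of 3 arrays came from cells transfected with human PRL-3, the phosphatase encoded by PTP4A3, and is numbered 4 to 6. The other group of 3 arrays came from cells with a pEGFP control vector and is numbered 1 to 3. Both groups grew in RPMI with 10% serum and 5 ng/ml human IL-3, and 100 ng of total RNA was labelled with biotin. The labels do not say whether a line was 1 clone or a pool, nor whether the 3 arrays of each line stand for separate cultures, so every p-value reflects array-to-array spread that may be purely technical.

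Classical cadherins span the membrane and bind the same cadherin on the next cell, and inside the cell they hold catenins that link them to actin. Tight junctions are built from claudins, occludin-type MARVEL proteins and JAM proteins, and ZO scaffolds such as the product of TJP1 gather them beneath the membrane. In EMT, epithelial cells lose E-cadherin (CDH1) and keratins and gain N-cadherin (CDH2) and vimentin (VIM), and the SNAI, ZEB and TWIST factors repress the epithelial genes. Blood cells are not epithelial: VIM and ZEB2 are normal products of many of them, and PRL-3 has been linked to EMT in carcinoma cells.

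At adjusted p 0.05 by limma, 67 of all 18377 genes were at least 2-fold higher in PRL-3 arrays than in control arrays. Among the 42 measured genes of the set, 3 were of this kind. These were TJP1, the ZO-1 scaffold of tight junctions, CDH2, and DSP, desmoplakin, which ties desmosomes to intermediate filaments. CGN, cingulin, a tight junction partner of ZO-1, was 1.22-fold higher and just past the threshold, and 38 measured genes did not pass, CDH1, the claudins, the keratins, VIM and the EMT transcription factors among them. The promoters of these 3 genes are shown because their rises were the largest of the set, and whether they share a control was not tested. Each window is the outermost start that RefSeq lists for the gene (build GRCh38.p14), with 250 bases before the start and 50 after it, 5′ to 3′ on the strand of the gene. Capitals mark CACCTG or its reverse complement CAGGTG, an E-box form that SNAI and ZEB factors bind.
TJP1, chr15:29969000-29969299, minus strand: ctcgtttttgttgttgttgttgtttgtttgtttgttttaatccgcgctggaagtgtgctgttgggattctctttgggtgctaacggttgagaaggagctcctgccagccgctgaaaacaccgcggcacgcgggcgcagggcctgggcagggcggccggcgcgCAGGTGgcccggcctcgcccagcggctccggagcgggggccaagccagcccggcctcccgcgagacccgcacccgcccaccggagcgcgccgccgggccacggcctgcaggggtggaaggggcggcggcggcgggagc
DSP, chr6:7541421-7541720, plus strand: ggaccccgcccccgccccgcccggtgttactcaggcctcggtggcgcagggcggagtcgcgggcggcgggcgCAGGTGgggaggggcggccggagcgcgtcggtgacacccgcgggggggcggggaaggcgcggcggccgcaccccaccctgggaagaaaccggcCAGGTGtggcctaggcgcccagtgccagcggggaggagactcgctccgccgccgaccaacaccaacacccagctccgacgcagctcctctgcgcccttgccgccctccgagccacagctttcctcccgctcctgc
CDH2, chr18:28177081-28177380, minus strand: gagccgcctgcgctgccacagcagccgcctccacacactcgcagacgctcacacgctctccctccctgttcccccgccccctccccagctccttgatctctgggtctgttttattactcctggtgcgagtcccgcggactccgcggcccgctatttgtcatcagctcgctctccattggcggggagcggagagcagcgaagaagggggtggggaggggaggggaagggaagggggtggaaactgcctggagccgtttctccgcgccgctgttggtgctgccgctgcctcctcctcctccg
The TJP1 window held 1 copy, whose first base lies 88 bases before the start. In the DSP window there were 2 copies, at 178 and 85 bases before the start. The CDH2 window held 0. RefSeq lists 3 further windows for TJP1 and 1 for CDH2, and 0 of these held a copy. At least 1 copy was present in 20.6% of all 35116 windows and in 21.7% of the 46 windows of 25 measured junction and EMT genes. AACCGGTT, a form bound by GRHL factors that reads the same on both strands, was in 0 of these 3 windows and in 0.134% of all windows. A match is a description of letters, and which start TF-1 cells used was not measured here.

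PTP4A3 read 10.81, 10.93 and 10.79 in PRL-3 arrays and 7.92, 8.03 and 7.97 in control arrays (log2 intensity) and the groups stood far apart in the direction of their labels. Array medians ran from 89.8 to 92.9 in intensity. Across genes, r was 0.9774 to 0.9863 for pairs of a PRL-3 and a control array and 0.9861 to 0.9964 for pairs of the same group, as a description, since genes are not independent. In all, 842 of 18377 genes (4.58%) were higher and 571 (3.11%) lower with PRL-3 at adjusted p 0.05 by limma. Among the 42 measured junction and EMT genes 4 were higher (9.52%) and 0 lower, and 10 had an unadjusted p under 0.05 (23.8%, against 20.2% of all genes). Of these, 3 were lower with PRL-3 (7.14%, against 9.6% of all genes), so both shares lay near those of the whole array. Their median difference was 0.0062, against -0.015 over all genes (log2, PRL-3 minus control). The list was drawn up with results of these arrays known, so its share past the threshold is a description.

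TJP1 (probe set 7986977) read 7.97, 7.96 and 7.97 in PRL-3 arrays, against 6.40, 6.16 and 6.18 in control arrays (log2 intensity). The PRL-3 values were almost equal to each other, and all lay far above the highest control value. The mean was 7.97 ± 0.0037 with PRL-3 and 6.25 ± 0.13 with control vector (SD, n = 3 each). TJP1 thus rose 3.29-fold, by 1.72 ± 0.081 on the log2 scale (SE), with adjusted p = 4.81e-05 by limma and p = 0.1 in an exact two-sided permutation test, the smallest that 3 against 3 arrays can give. Among all 18377 genes it was the rise of rank 12. With each array left out in turn the difference stayed between 1.67 and 1.79, and adjusted p was at most 0.00129 in limma.

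CGN (probe set 7905406), whose protein binds ZO-1, read 6.69, 6.61 and 6.53 in PRL-3 arrays and 6.31, 6.33 and 6.35 in control arrays. The groups did not overlap, but the gap was small. The difference was 0.28 ± 0.070 (log2, SE; adjusted p = 0.0476 by limma). This call was lost whichever array was left out, with adjusted p between 0.0654 and 0.187 in limma, so CGN stands at the threshold. TJP3, which encodes the related scaffold ZO-3, differed by 0.091 ± 0.067 and did not pass (adjusted p = 0.540, limma).

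CDH2 (probe set 8022674) read 7.72, 7.72 and 7.70 in PRL-3 arrays, against 6.47, 6.39 and 6.46 in control arrays. Every PRL-3 array lay more than 1 log2 unit above every control array. N-cadherin rose by 1.27 ± 0.064 (log2, SE), which is 2.42-fold, with adjusted p = 4.88e-05 by limma and p = 0.1 in the exact permutation test. The rise ranked 33 of 18377 and stayed between 1.25 and 1.29 with each array left out, with adjusted p of at most 0.00157 in limma.

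E-cadherin showed nothing of that size. CDH1 (probe set 7996837) read 5.66, 5.62 and 5.75 in PRL-3 arrays and 5.58, 5.80 and 5.48 in control arrays, and the groups overlapped. Its difference of 0.054 had a 95% interval of -0.16 to 0.27 (log2, limma; adjusted p = 0.834). In both groups CDH1 stood low in the table, at the 18.9 percentile of gene levels with PRL-3 and the 17.6 percentile in control arrays, whereas CDH2 stood at the 71.6 percentile with PRL-3 and the 39.0 percentile in control arrays. Probe sets respond differently and the table has no detection call, so a percentile is only a rough guide to whether a gene was read at all. Among the other classical cadherins, the vascular endothelial cadherin gene CDH5 differed most, with 6.34, 5.89 and 6.17 in PRL-3 arrays and 6.49, 6.58 and 6.34 in control arrays. All its PRL-3 values lay below the control values, by 0.34 ± 0.12 on average, and it did not pass (adjusted p = 0.150, limma). CDH6 showed a difference of -0.25 ± 0.089 with groups that did not overlap (adjusted p = 0.157, limma). CDH3, CDH11 and CDH24 differed by -0.079, -0.022 and 0.069, all with overlapping groups.

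**Figure D1:**
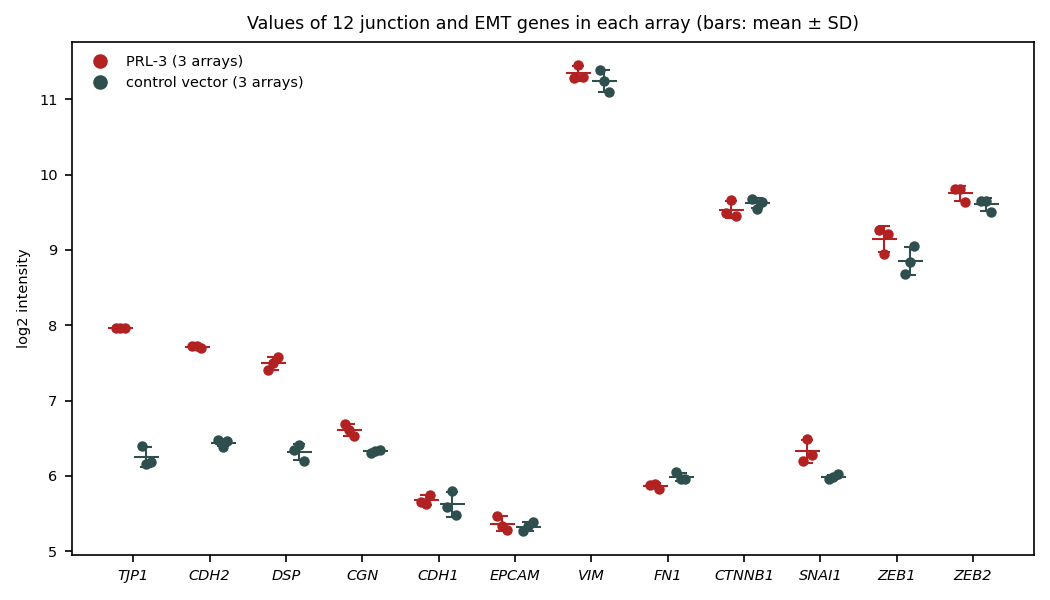
Log2 intensity (vertical axis) of 12 junction and EMT genes in each of the 3 PRL-3 arrays (left, red) and 3 control arrays (right, dark), with the mean and SD of each group. TJP1, CDH2 and DSP have every PRL-3 array at least 1 log2 unit above every control array, and CDH1, EPCAM, VIM, CTNNB1, ZEB1 and ZEB2 overlap between groups.

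DSP (probe set 8116780) read 7.41, 7.50 and 7.58 in PRL-3 arrays, against 6.34, 6.41 and 6.20 in control arrays. All PRL-3 arrays were higher than all control arrays. Desmoplakin rose by 1.18 ± 0.082 (log2, SE), which is 2.26-fold, with adjusted p = 0.000261 by limma and p = 0.1 in the exact permutation test. With each array left out it stayed between 1.12 and 1.22 (adjusted p of at most 0.00283, limma). The desmosomal cadherins did not pass: DSC2, desmocollin 2, differed by 0.15 ± 0.072 (adjusted p = 0.292, limma), and DSG2, desmoglein 2, differed by -0.081 ± 0.064 (adjusted p = 0.571, limma). DSC2 stood at the 91.2 percentile of gene levels with PRL-3 and the 90.1 percentile in control arrays, while DSG2 stood at the 1.21 percentile with PRL-3 and the 2.06 percentile in control arrays.

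**Figure D2:**
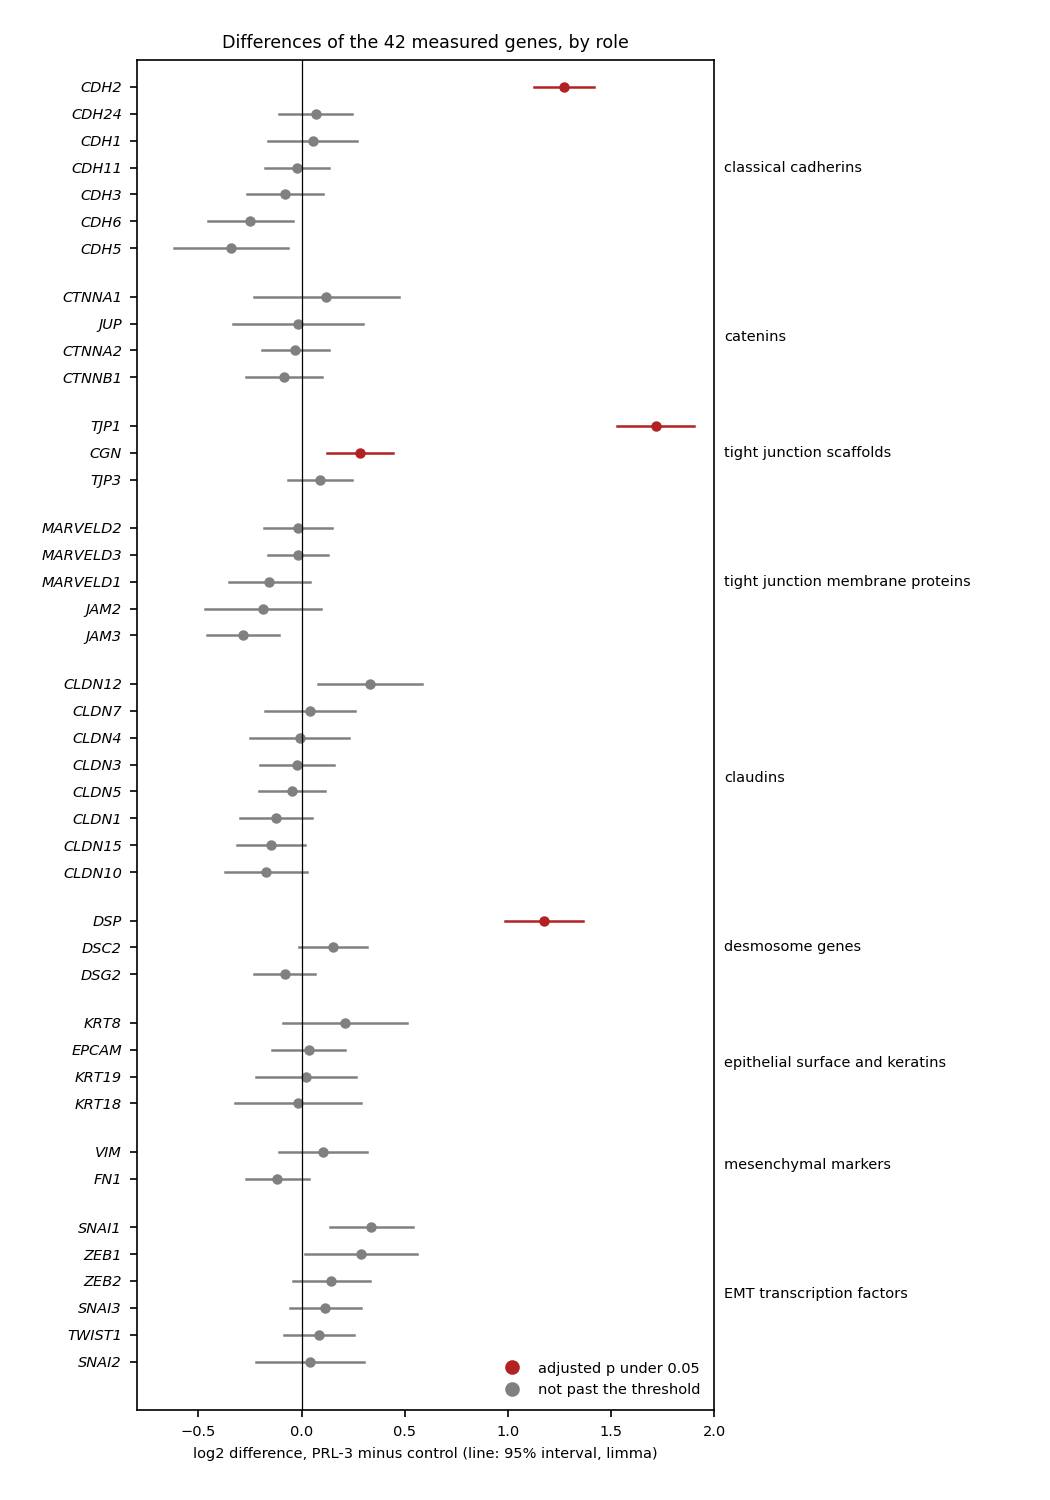
Log2 difference, PRL-3 minus control, of the 42 measured genes grouped by role, with limma's 95% interval as a line. TJP1, CDH2, DSP and CGN (red) passed adjusted p 0.05, and the other 38 lie between -0.34 and 0.34.

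Of the 4 measured catenins, which cadherins hold at the membrane, 0 passed, against 7.69% of all genes, and 4 genes are too few to compare shares. CTNNB1, beta-catenin, which is also the transcriptional arm of WNT signalling, read 9.49, 9.67 and 9.46 in PRL-3 arrays and 9.68, 9.55 and 9.64 in control arrays. Its groups overlapped, and the difference of -0.085 had a 95% interval of -0.27 to 0.10 (log2, limma; adjusted p = 0.655). CTNNA1, alpha-catenin, which links beta-catenin to actin, differed most among the catenins, by 0.12 ± 0.15. JUP, plakoglobin, differed by -0.016 ± 0.14, and the neural alpha-catenin gene CTNNA2 differed by -0.030 ± 0.070.

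Among the 5 measured MARVEL and JAM genes 0 passed, and among the 8 claudins 0 passed. Over all genes 7.69% passed in either direction, so 0 among so few genes is a description only. JAM3, an adhesion protein also found on blood and endothelial cells, came closest, with 6.38, 6.33 and 6.27 in PRL-3 arrays and 6.60, 6.72 and 6.51 in control arrays. Its groups did not overlap, and the difference was -0.28 ± 0.077 (adjusted p = 0.0671, limma). Without control 3 it passed, at -0.33 with adjusted p = 0.0439 in limma. JAM2 differed by -0.19 ± 0.12 and MARVELD1 by -0.16 ± 0.085, while MARVELD2, tricellulin, and MARVELD3 differed by -0.016 and -0.017. Among the 8 claudins CLDN12 differed most, by 0.33 ± 0.11 with groups that did not overlap (adjusted p = 0.122, limma). It read 6.82, 6.63 and 6.63 in PRL-3 arrays and 6.16, 6.54 and 6.37 in control arrays. The other 7 claudins ran from -0.17 (CLDN10) to 0.041 (CLDN7), and CLDN15, at -0.15, was the only one of these 7 whose groups did not overlap. Groups also did not overlap in 12.1% of all genes with PRL-3 above and in 12.2% with PRL-3 below.

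Epithelial markers did not pass in either direction. EPCAM, an epithelial adhesion protein, read 5.47, 5.34 and 5.28 in PRL-3 arrays and 5.27, 5.33 and 5.39 in control arrays, with groups that overlapped. Its 95% interval was -0.14 to 0.21 (log2, limma; adjusted p = 0.879). KRT8, a simple epithelial keratin, differed most in this group, by 0.21 ± 0.13 (adjusted p = 0.449, limma), and its partner KRT18 differed by -0.017 ± 0.13. KRT19 differed by 0.022 ± 0.11. KRT8 and KRT18 have many processed pseudogenes, so their probe sets may read other sequences too.

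Mesenchymal markers did not separate the groups past the threshold either. VIM, the intermediate filament of mesenchymal and blood cells, was at the 99.4 percentile of gene levels with PRL-3 and the 99.3 percentile in control arrays. It read 11.28, 11.45 and 11.30 in PRL-3 arrays and 11.38, 11.24 and 11.10 in control arrays, and its 95% interval was -0.11 to 0.32 (log2, limma; adjusted p = 0.636). FN1, fibronectin, read 5.88, 5.90 and 5.83 in PRL-3 arrays and 6.05, 5.95 and 5.96 in control arrays. Its PRL-3 values all lay below the control values, by 0.12 ± 0.066 on average (adjusted p = 0.390, limma).

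Of the EMT transcription factors 0 of 6 passed, against 7.69% of all genes, and 6 genes are too few to compare shares. Their differences ran from 0.041 to 0.34. SNAI1 was closest to the threshold, with 6.20, 6.50 and 6.28 in PRL-3 arrays and 5.96, 5.98 and 6.02 in control arrays. All PRL-3 values were above the control values, and the difference was 0.34 ± 0.087 (adjusted p = 0.0560, limma). ZEB1 read 9.27, 8.95 and 9.21 in PRL-3 arrays and 8.67, 8.85 and 9.05 in control arrays, which overlap through control 3 and PRL-3 5. Its difference was 0.29 ± 0.12 (adjusted p = 0.217, limma). ZEB2 read 9.81, 9.80 and 9.63 in PRL-3 arrays and 9.65, 9.66 and 9.51 in control arrays. That is a difference of 0.15 ± 0.080 with overlapping groups (adjusted p = 0.381, limma). With array weights SNAI1 and ZEB1 passed as higher (adjusted p = 0.00898 and 0.00674, limma), and CDH5, CDH6, JAM3, MARVELD1, CLDN10 and CLDN15 passed as lower (adjusted p of 0.00283 for JAM3 to 0.0428 for CLDN10, limma). These weights are tuned on the spread of the same arrays. SNAI3, TWIST1 and SNAI2 differed by 0.12, 0.084 and 0.041.

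Over all measured genes of the set, the groups did not overlap in 7 with PRL-3 above (16.7%, against 12.1% of all genes) and in 6 with PRL-3 below (14.3%, against 12.2% of all genes). Those above were TJP1, CDH2, DSP, CGN, CLDN12, DSC2 and SNAI1, and those below were CDH5, CDH6, JAM3, CLDN15, DSG2 and FN1. For each of the 38 genes that did not pass, limma's 95% interval lay within a 2-fold change in either direction. For 37 of them it lay within a 1.5-fold change, and the exception was CDH5. Each interval covers the spread between these arrays only, and a dim probe set may understate a change.

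**Figure D3:**
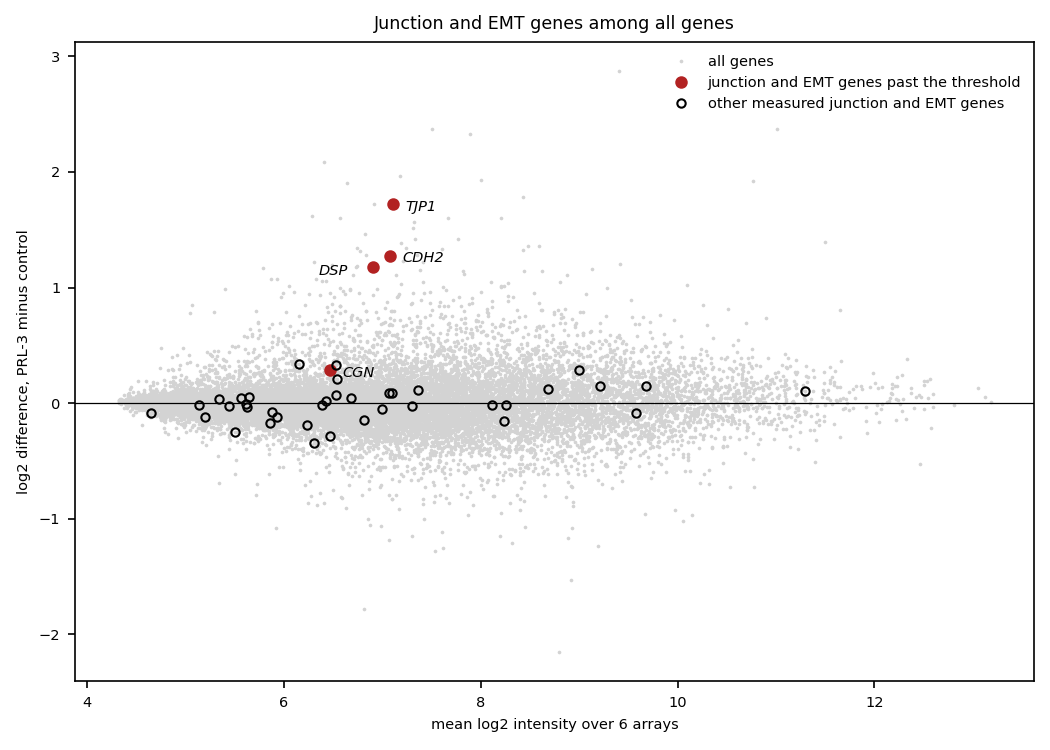
Log2 difference, PRL-3 minus control (vertical axis), against the mean log2 intensity over 6 arrays (horizontal axis) for 18377 genes (grey). TJP1, CDH2 and DSP (red) stand at 1.72, 1.27 and 1.18 among the larger rises of the array, CGN (red) at 0.28, and open circles mark the 38 other measured junction and EMT genes.

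The genes around the 4 that passed were read from the same fit, in the gene order of RefSeq and with 3 measured genes on each side. CDH2 lies beside a run of desmosomal cadherin genes, with DSC3, DSC2 and DSC1 on one side and CHST9, AQP4-AS1 and AQP4 on the other, and these 6 neighbours differed by -0.067 to 0.18 with 0 past the threshold. For TJP1 the 6 neighbours differed by -0.17 to 0.12, also with 0 past the threshold. Beside DSP the next gene, SNRNP48, a subunit of the minor spliceosome, rose by 0.61 ± 0.11 (adjusted p = 0.0124, limma), and its call was lost without control 2, PRL-3 4 or PRL-3 6 (adjusted p of up to 0.0705, limma). The other 5 neighbours of DSP did not pass. Around CGN 0 of 6 passed, and TUFT1 was highest at 0.35 ± 0.094 (adjusted p = 0.0631, limma).

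A further 171 genes of these pathways were listed in 6 groups, and 162 were measured. Of these 8 rose (4.94%) and 4 fell (2.47%), which is close to the shares over all genes, and their median difference was 0.0090. Among 34 other cadherins and protocadherins 2 rose (5.88%, against 4.58% of all genes) and 2 fell (5.88%, against 3.11%). CDH12, a neural type II cadherin, read 7.14, 6.80 and 6.82 in PRL-3 arrays and 5.62, 5.81 and 5.66 in control arrays. It rose by 1.22 ± 0.11, which is 2.34-fold (adjusted p = 0.000695, limma). PCDH17, a protocadherin, rose by 0.46 ± 0.095, the giant cadherin gene FAT4 fell by 0.60 ± 0.076, and CDH26 fell by 0.47 ± 0.069 (log2, SE). Adjusted p in limma was 0.00342 for FAT4 and 0.00627 for CDH26. For PCDH17 it was 0.0258 in limma, a call lost without control 2, PRL-3 4 or PRL-3 6.

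Other desmosome genes and keratins held 1 rise among 17 measured (5.88%, against 4.58% of all genes) and 0 falls. PERP, a membrane protein of desmosomes that is also a p53 target, rose by 0.89 ± 0.12 (1.86-fold, adjusted p = 0.00379, limma). It read 7.79, 8.04 and 7.69 in PRL-3 arrays and 6.79, 7.13 and 6.92 in control arrays. Of 34 other tight junction and polarity genes 1 rose (2.94%, against 4.58% of all genes) and 0 fell (against 3.11% of all genes). This was PARD3, a polarity scaffold, at 0.37 ± 0.073 (adjusted p = 0.0208, limma). Without control 1, control 2, PRL-3 4 or PRL-3 6 its adjusted p was 0.0658 to 0.0938 in limma. Of 19 other adherens junction genes 0 passed in either direction, against 7.69% of all genes.

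Other EMT regulators and epithelial factors rose in 3 of 28 (10.7%, against 4.58% of all genes) and fell in 0 (against 3.11% of all genes). They do not share 1 role. ID2, an inhibitor of basic helix-loop-helix factors, rose by 1.01 ± 0.22 (adjusted p = 0.0327, limma), and its call was lost without control 2 or any 1 PRL-3 array. SPARC, a matrix protein also held by megakaryocytes, rose by 0.69 ± 0.090 (adjusted p = 0.00366, limma). GRHL1, a grainyhead factor of epithelia that regulates a desmosomal cadherin in mouse epidermis, rose by 0.67 ± 0.097 (adjusted p = 0.00586, limma). GRHL1 read 7.45, 7.68 and 7.48 in PRL-3 arrays and 6.91, 6.99 and 6.71 in control arrays.

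In the beta-catenin pathway 1 of 30 rose (3.33%, against 4.58% of all genes) and 2 fell (6.67%, against 3.11%). The WNT receptor gene FZD6 fell by 0.57 ± 0.065 (adjusted p = 0.00212, limma), with 8.06, 7.97 and 8.07 in PRL-3 arrays and 8.58, 8.61 and 8.62 in control arrays. BTRC, the ubiquitin ligase subunit that marks beta-catenin for breakdown, fell by 0.39 ± 0.074 (adjusted p = 0.0175, limma), a call lost without control 1, control 2, PRL-3 4 or PRL-3 6. FZD4 rose by 0.33 ± 0.082 at the threshold (adjusted p = 0.0487, limma), and of the fits without 1 array only that without control 3 kept it.

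**Figure D4:**
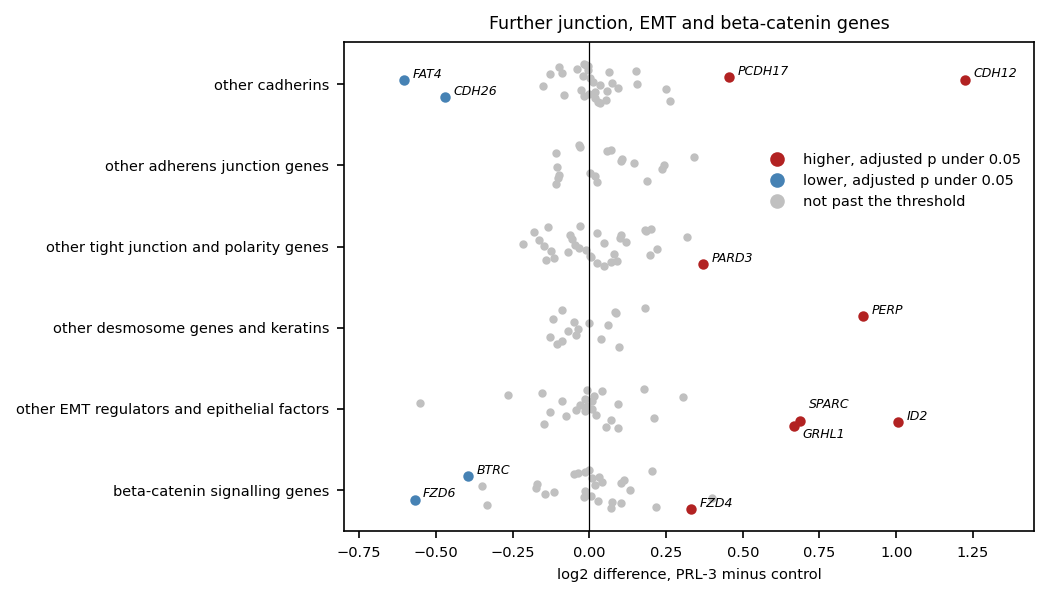
Log2 difference, PRL-3 minus control (horizontal axis), of 162 further genes in 6 lists, 1 point a gene, spread vertically within a list for legibility only. Named points passed adjusted p 0.05, 8 higher (red) and 4 lower (blue), and CDH12 at 1.22 is the largest of them.

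Markers of other cells were set beside these values. Many of them are genes already described, read on the same probe sets. EPCAM, CDH1, KRT8, KRT18, KRT19, CLDN4, CLDN7, CDH5, CLDN5 and CDH11 belong to the set, and KRT7, GRHL2, ELF3 and ESAM to the further lists. Their results are therefore not new readings, and the lists are short, so the counts are descriptions. Of 10 measured epithelial markers 0 passed, against 7.69% of all genes in either direction. The mean log2 level of the epithelial list ran from 6.23 to 6.25 in PRL-3 arrays and 6.17 to 6.21 in control arrays. Of 9 fibroblast markers 0 passed, against the same 7.69% of all genes. Fibroblast list means were 5.91 to 5.99 in PRL-3 arrays and 5.85 to 5.98 in control arrays. Endothelial markers rose in 1 of 7 (14.3%, against 4.58% of all genes), KDR (0.59 ± 0.11, adjusted p = 0.0152, limma). List means were 7.90 to 8.00 in PRL-3 arrays and 7.82 to 8.03 in control arrays. KDR lost its call without control 2, PRL-3 4 or PRL-3 6. The other 6 endothelial genes ran from -0.34 (CDH5) to 0.32 (ESAM), and the list median was -0.046. Among them PECAM1, an adhesion protein of endothelium and blood cells, differed by -0.30 with groups that did not overlap (adjusted p = 0.0531, limma). Markers of TF-1 itself rose in 2 of 11 (18.2%, against 4.58% of all genes), KIT by 1.01 ± 0.089 and CSF2RA by 0.27 ± 0.063. CSF2RA lost its call whichever array was left out. List means were 8.33 to 8.63 in PRL-3 arrays and 8.21 to 8.50 in control arrays. The 9 others of that list ran from -0.57 (CSF2RB) to 0.49 (IL3RA), and the list median was -0.020. In CD34 all PRL-3 values lay below the control values, by 0.44 on average (adjusted p = 0.0882, limma). PTPRC and GATA2 lay above without overlap, by 0.33 (adjusted p = 0.0605, limma) and 0.47 (adjusted p = 0.112, limma). A change in the share of cells and a change in RNA per cell cannot be told apart in bulk RNA.

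In 5 of the 42 measured genes the arrays within groups had the same order in 3 places. In CTNNA1, JUP, KRT18, VIM and SNAI3 the highest PRL-3 value was PRL-3 5, the highest control value control 1 and the lowest control value control 3. Taken singly, PRL-3 5 was highest of its group in 14 of the 42 genes. Control 1 was highest of its group in 16 and control 3 lowest in 20. In every gene 1 of the 3 arrays of a group must be highest and 1 lowest. The shares over all genes were not counted, so these counts are a description only. Some genes ran the other way, and in ZEB1 PRL-3 5 and control 1 were lowest and control 3 highest. CTNNA1 read 8.61, 9.00 and 8.63 in PRL-3 arrays and 8.84, 8.71 and 8.33 in control arrays. JUP read 8.00, 8.36 and 7.96 in PRL-3 arrays and 8.32, 8.13 and 7.91 in control arrays. In both genes the spread within a group exceeded the difference between groups. One direction held 0.639 of the within-group variance over all genes, with control 1 and PRL-3 5 at one end and control 3 at the other. Without control 1 and PRL-3 5 together TJP1, CDH2 and DSP still passed and CGN did not (adjusted p = 0.153, limma).

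**Figure D5:**
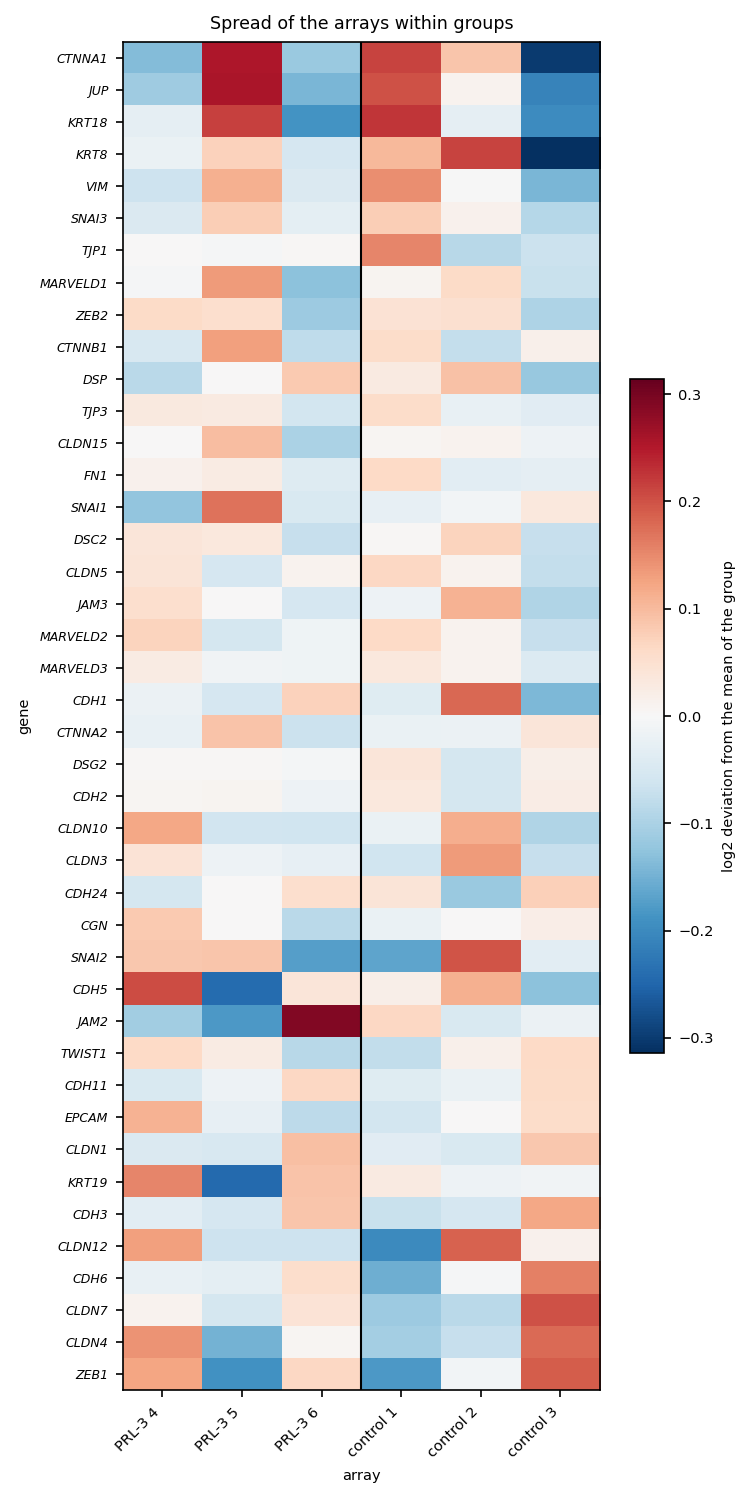
Log2 deviation of each array from the mean of its own group (colour) for the 42 measured genes (rows), ordered by PRL-3 5 plus control 1 minus control 3. CTNNA1, JUP and KRT18 at the top are high in PRL-3 5 and control 1 and low in control 3, and TJP1 and CDH2 hardly vary among the PRL-3 arrays.

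Where a gene of the set had a further probe set, it did not pass either. This held for EPCAM, KRT18, MARVELD2 and ZEB2, with differences of 0.39, -0.17, -0.012 and -0.031. The further EPCAM probe set read 5.45, 5.81 and 5.14 in PRL-3 arrays and 5.19, 5.25 and 4.78 in control arrays, which overlap (adjusted p = 0.379 over all probe sets, limma). TJP1, CDH2, DSP and CGN each had 1 probe set, so no second reading of them was at hand. CTNND1 and OCLN lie on probe sets with several symbols, and CDH4, CDH13, F11R and TWIST2 were not named in the annotation used, so none of the 6 was analysed here.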

How the data were processed

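Total RNA of TF-1 cells was measured on 6 whole-transcript arrays. For each of 28869 probe sets the deposited table held an intensity on a linear scale in every array. The authors' summary, background and normalization steps were not given in the sources used here. Array medians lay close together, so the values were taken as normalized, and differences are relative to the bulk of genes. The log2 of each intensity was taken with no offset.

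Probe sets with exactly 1 symbol in the platform annotation (19310) were used, and the brightest stood for its gene, which left 18377 genes; 1752 probe sets with several symbols and 7807 unnamed ones entered only 1 alternative. The groups were compared by lmFit and eBayes of limma 3.58.1 (R 4.3.3), two-sided, with Benjamini-Hochberg adjustment over all genes and a threshold of 0.05. Errors are limma's SE for differences and SD for levels. Precision is limited by the number of arrays.

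The genes and lists were chosen with earlier results of these data known. Genes past the threshold and 10 fixed genes were named with all values, with the largest of each role and up to 4 of each further list; other genes were named after their values were seen. Promoters came from RefSeq (GRCh38.p14), where 25 of the 42 genes had at least 1 window. Alternatives were 2 normalizations, a variance trend, array weights, 2 filters on dim genes, other uses of probe sets and leaving arrays out; a covariate for the main within-group direction was added after the data were seen.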

Additional observations from a re-analysis of the deposited data

How the results depend on the processing

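TJP1, CDH2 and DSP passed in all 16 alternatives, at 1.67 to 1.80, 1.25 to 1.31 and 1.09 to 1.22, and PTP4A3 stayed at 2.80 to 2.90. CGN passed in 5 of 15. No paired analysis was possible because PRL-3 and control arrays share no replicate number. Array weights called 2122 genes higher and 2303 lower, 6 genes of the set lower, and 19 of the further genes higher and 14 lower. The covariate added after seeing the data called 1976 and 1805 genes, 7 of the set higher and 3 lower, and 19 and 9 of the further genes. Both settings are tuned on the spread of these arrays. Leaving out 1 array, which leaves fewer samples, called 388 (without control 2) to 792 genes higher and 178 (without control 2) to 747 lower; without PRL-3 4 the counts were 405 and 199, without PRL-3 6 they were 431 and 228, and without control 1 they were 571 and 302. In the set these fits called 3 genes higher each and 0 to 1 lower (JAM3, without control 3), and of the further genes 4 to 8 higher (4 without control 2, PRL-3 4 or PRL-3 6).

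Small differences that had not passed changed sign without passing. With the median shift CLDN4 was 0.0026. With array weights CDH1 was -0.070, CTNNA1 -0.038, CLDN4 0.11 and SNAI2 -0.11. Without control 1 and PRL-3 5 MARVELD2 was 0.043, MARVELD3 0.0050, CLDN4 0.012, CLDN5 0.012 and SNAI2 -0.085. With 1 array left out the ranges were -0.017 to 0.14 for CDH1, -0.054 to 0.0079 for CDH11, -0.029 to 0.23 for CTNNA1, -0.075 to 0.0034 for CTNNA2, -0.14 to 0.084 for JUP, -0.052 to 0.015 for MARVELD2, -0.057 to 0.045 for CLDN3, -0.080 to 0.079 for CLDN4, -0.016 to 0.14 for CLDN7, -0.020 to 0.076 for EPCAM, -0.13 to 0.095 for KRT18, -0.055 to 0.14 for KRT19 and -0.041 to 0.14 for SNAI2. The cause was not tested. With no detection call, low intensities have no known floor.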
